A study of Mus musculus with 20 samples.

Results

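Messenger RNA of the amygdala was compared between 5 F2 male mice of the stress lineage and 5 F2 male mice of the no-stress lineage, which are 10 of the 20 libraries of the series and were chosen by their labels. All 20 animals were male C57B6 mice, bred in house from a Taconic strain, sampled at postnatal day 84 without any behavioural testing. The stress lineage goes back to animals that underwent chronic unpredictable stress, and the series title places that stress in adolescence. The F2 mice are described only as the generation that followed it, and the labels do not give the transmitting parent, the litters or the number of founders. The other 10 libraries are F1 mice, 5 of each lineage, and entered the fit as shared information on the spread between mice. RNA came from 1.2 mm punches taken on both sides of coronal sections, and the library kit selected poly-A RNA and kept strand. The mice are called biological replicates, so the p-values measure the spread among these mice, and littermates, if there were any, would be less independent than assumed.

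The amygdala assigns emotional value to stimuli and helps set behavioural and hormonal responses to threat. Corticosteroid hormones released in stress act there through the glucocorticoid and mineralocorticoid receptors, which are ligand-activated transcription factors. Comparing descendants of stressed and unstressed animals asks whether an ancestor's experience is visible in a later generation that was not itself exposed. In RNA sequencing, the recovery of a transcript can also depend on the share of G and C bases in it, because steps such as amplification treat fragments of different base composition unequally, and this dependence can differ from library to library. In mammals the GC content of a transcript is also unequal between classes of genes.

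The labelled tissue was checked against marker genes. All 20 listed markers of basolateral and pallial excitatory neurons and all 20 of central amygdala and subpallial neurons passed the filter on low counts, while only 5 of 12 listed markers of choroid plexus and ependyma did. Markers of striatal medium spiny neurons, which lie next to the amygdala, summed to between 1403 and 11860 CPM (counts scaled to a common library total) in the stress lineage and to between 3492 and 11040 CPM in the no-stress lineage. F2 stress replicate 14 had the lowest striatal sum and also the lowest sum of myelin markers (1977 CPM, against 3132 to 6342 CPM in the other 9 libraries), and F2 no-stress replicate 20 had the lowest sum of pallial markers (694.8 CPM, against 1190 to 2739 CPM in the others). The punches thus differed in these marker sums within both groups. In bulk tissue, fewer cells of a type and less RNA per cell cannot be told apart.

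Among the 16727 genes tested, 1324 (7.92%) differed between the F2 lineages at a Benjamini-Hochberg adjusted p below 0.05 by edgeR's quasi-likelihood test. In the stress lineage 441 (2.64%) were higher and 883 (5.28%) were lower. The direction of a gene went with the base composition of its transcript. Higher genes had a median transcript GC content of 43.5%, lower genes one of 58.3%, and genes that were not called one of 49.8%. When each library's own trend with transcript GC content and length was fitted and entered into the same test, 1 of 16692 genes (0.00599%) was called, and 2373 genes had an unadjusted p below 0.05, compared with 4274 of 16727 without the trend. A length trend alone, entered in the same way, left 1962 calls, of which 59.3% were higher, where the fit without a trend had 33.3% higher.

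The composition that separates the called genes is visible in their coding sequences. Below are 90 bases from the middle of the coding sequence (GENCODE M21, GRCm38) of 3 GC-rich and 3 AT-rich called genes, the ones with the smallest p among the genes named here at a transcript GC content of at least 60% or at most 40%. Capitals mark G and C.
Zfp653: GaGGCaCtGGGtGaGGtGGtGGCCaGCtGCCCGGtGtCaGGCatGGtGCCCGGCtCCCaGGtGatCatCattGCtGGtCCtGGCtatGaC
Sptbn4: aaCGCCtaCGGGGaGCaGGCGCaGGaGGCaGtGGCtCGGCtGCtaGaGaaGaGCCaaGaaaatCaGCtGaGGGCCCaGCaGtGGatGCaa
Hdac5: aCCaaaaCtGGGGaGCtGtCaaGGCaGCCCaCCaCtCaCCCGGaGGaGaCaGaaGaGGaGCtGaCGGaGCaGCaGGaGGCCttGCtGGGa
Nxph2: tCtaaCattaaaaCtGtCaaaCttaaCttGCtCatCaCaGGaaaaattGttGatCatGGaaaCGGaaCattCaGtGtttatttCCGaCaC
Pdcd10: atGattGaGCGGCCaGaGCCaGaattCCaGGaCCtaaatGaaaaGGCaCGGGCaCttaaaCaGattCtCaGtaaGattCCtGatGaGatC
Naa50: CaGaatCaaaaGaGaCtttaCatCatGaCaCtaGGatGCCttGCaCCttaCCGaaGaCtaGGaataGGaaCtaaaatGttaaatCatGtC

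Zfp653, a zinc finger gene on the minus strand (chr9:22055411-22071376), Sptbn4, the beta-IV spectrin of axon initial segments and nodes (chr7:27356383-27447686, minus strand), and Hdac5, a class II histone deacetylase (chr11:102194432-102230166, minus strand), were lower in the stress lineage. Their windows, which start at bases 889, 3796 and 1636 of the coding sequence, hold 58, 55 and 56 G or C bases of 90. Nxph2, a secreted neurexin ligand (chr2:23321246-23401973, plus strand), Pdcd10, a protein that stabilises blood vessel junctions (chr3:75516490-75556856, minus strand), and Naa50, an N-terminal acetyltransferase (chr16:44139830-44163366, plus strand), were higher. Their windows start at bases 346, 274 and 217 and hold 31, 41 and 34 G or C bases of 90.

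Over all genes, the share of calls followed GC content step by step. With the genes in 10 equal bins of GC content, in the lowest bin (28.7 to 41.7%), 132 of 1669 genes were higher and 2 were lower. In the fifth bin (48.2 to 50.1%) 18 were higher and 9 were lower. In the highest bin (58.2 to 72.9%) 1 was higher and 474 of 1670, or 28.4%, were lower. The median log2 fold change went from 0.17 in the lowest bin, over 0.07 in the fifth, to −0.41 in the highest, and ran between −0.02 and 0.06 once the trend was entered. Bins of transcript length showed no such gradient, with medians from −0.03 to 0.03.

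**Figure D1:**
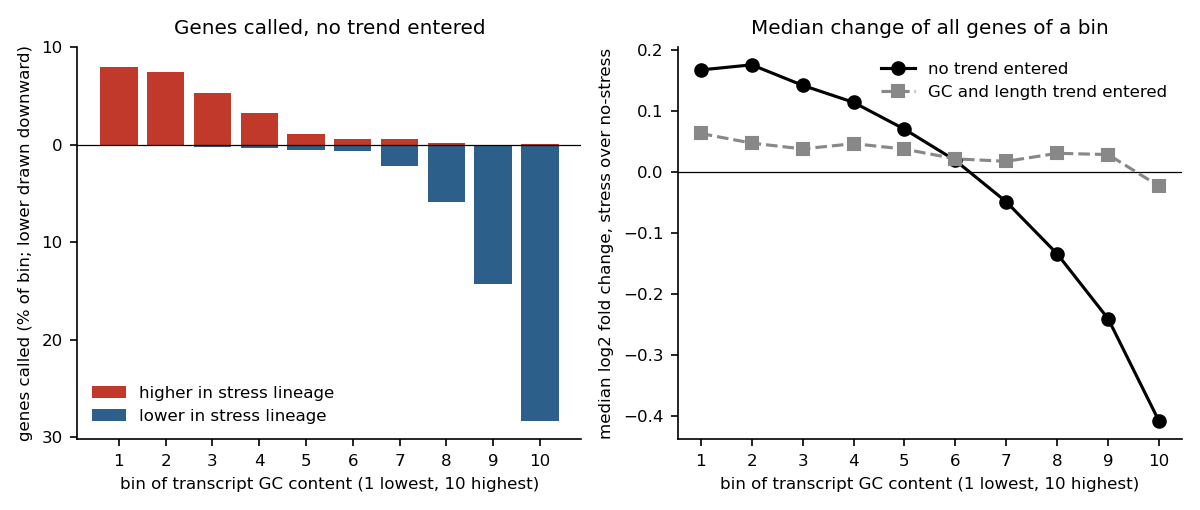
Genes in 10 equal bins of transcript GC content (1 lowest, 10 highest). Left, the percentage of each bin called higher (drawn upward) or lower (drawn downward) in the F2 stress lineage with no trend entered, rising to 28.4% lower in bin 10. Right, the median log2 fold change of stress over no-stress, which falls from 0.17 to −0.41 without the trend (circles) and stays between −0.02 and 0.06 with it (squares).

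Across 16692 genes the Spearman correlation of the F2 log2 fold change with transcript GC content was −0.55, as a description over genes, which are not independent and share the 10 libraries. Over the genes with a value for each region, it was −0.55 for the coding sequence (14247 genes) and −0.52 for the 3′ untranslated region (13809 genes). It was −0.05 for the promoter, the 250 bases before the start in RefSeq (11599 genes), which is DNA that lies ahead of the annotated transcript. With promoter GC content held fixed, the rank correlation with transcript GC content was −0.60. The coding sequence and the 3′ untranslated region each kept a correlation with the other held fixed (−0.33 and −0.26). Called higher and called lower genes had the same median promoter GC content of 60.8%, while their 3′ untranslated regions differed (37.8 and 53.5%). At the third codon position, where many changes leave the protein as it is, the median GC content was 46.4% in higher and 69.0% in lower genes, and at the second position, which nearly always sets the amino acid, it was 38.1 and 46.3%. The correlation of the F1 lineage difference with transcript GC content was 0.002 over the same 16692 genes.

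The trend was also measured once per library, as the GC contrast, the median log2 deviation from each gene's mean in the highest bin of GC content minus that in the lowest. In the stress lineage it was −0.31, −0.40, −0.40, −0.10 and 0.20 in replicates 11 to 15. In the no-stress lineage it was 0.62, 0.46, 0.48, 0.28 and −0.09 in replicates 16 to 20. Stress replicates 11 to 13 lay at the low end and no-stress replicates 16 to 19 at the high end, while stress replicate 15 and no-stress replicate 20 each lay within the other group's range, so the groups overlapped. The means were −0.20 ± 0.26 and 0.35 ± 0.28 (SD, n = 5 each), a difference of −0.55 (exact two-sided permutation test, p = 0.0159, adjusted over 9 library measures 0.143). In F1 the same difference was −0.00014 (exact permutation p = 1). The F2 difference minus the F1 difference was −0.55 (permutation within generations, p = 0.0381, not adjusted over the 9 measures).

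**Figure D2:**
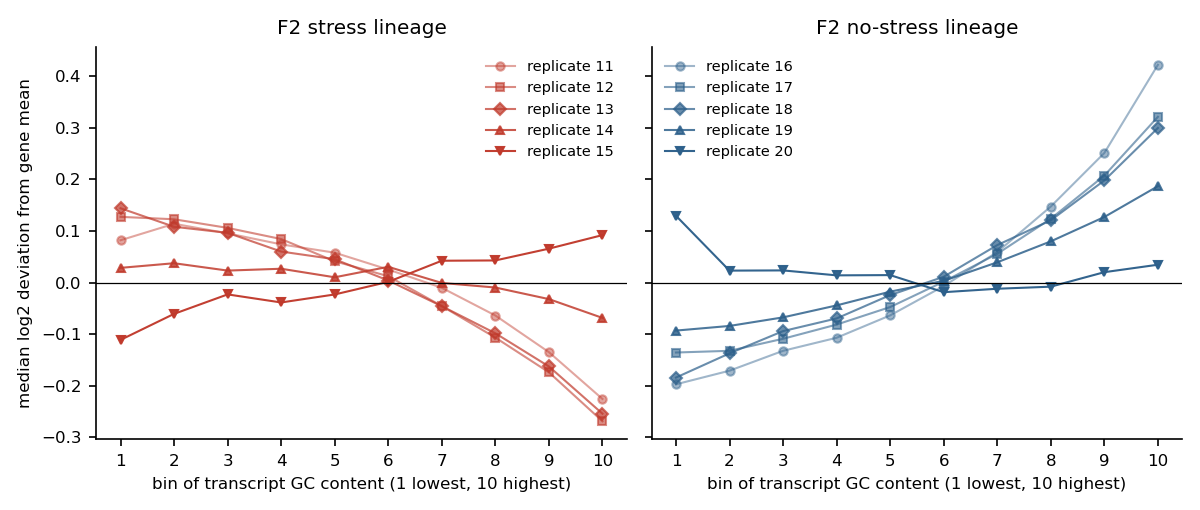
Median log2 deviation from each gene's mean (vertical axis) in 10 bins of transcript GC content (horizontal axis), 1 line per F2 library. Stress replicates 11 to 13 fall with GC content and no-stress replicates 16 to 19 rise, while stress replicate 15 rises and no-stress replicate 20 goes from 0.13 in bin 1 to 0.03 in bin 10.

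**Figure D3:**
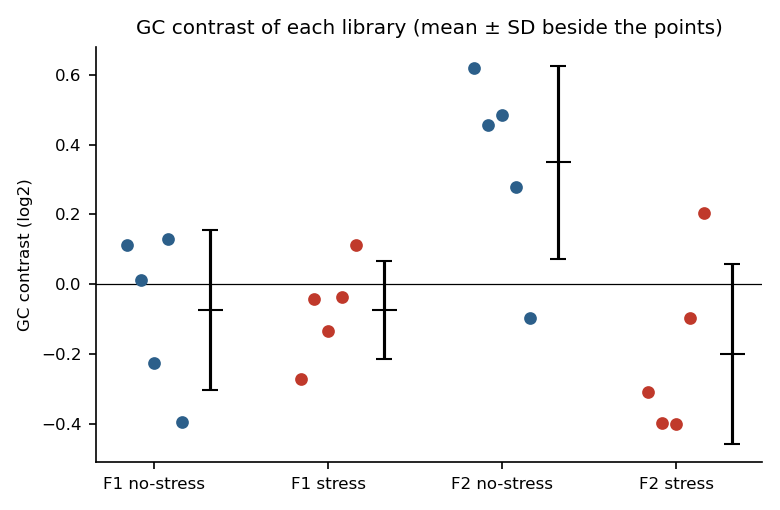
GC contrast (log2) of all 20 libraries by group, with mean ± SD beside the points. Both F1 groups are centred near −0.07, the F2 no-stress group at 0.35 and the F2 stress group at −0.20.

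Other library measures differed less. The mean GC content behind a count was 48.5% ± 0.222 in the stress lineage and 49.0% ± 0.357 in the no-stress lineage (exact permutation p = 0.0317, adjusted 0.143, n = 5 each). The length contrast differed by −0.01 (exact permutation p = 0.929). Mitochondrial genes took 7.86% ± 1.08 and 7.97% ± 0.871 of counts (exact permutation p = 0.849, n = 5 each), and 21763 ± 309 and 22124 ± 449 genes had a count (exact permutation p = 0.167, n = 5 each). The smallest p this design can give is 0.00794. Column totals of the F2 libraries ran from 13656440 to 13714805 counts, so the deposited totals hardly differ, and the depth of sequencing before they were brought to that common total is not known. The labels name no batch, date or preparation, and what gave the trend was not tested.

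Most called genes kept their direction but not their size when the trend was entered. Of 440 higher genes with a known GC content, 440 kept a positive log2 fold change and 333 had an unadjusted p below 0.05, and of 880 lower genes 832 kept a negative one and 396 had an unadjusted p below 0.05. Of 15372 genes not called, 12039 (78.3%) kept their sign and 1644 had an unadjusted p below 0.05 with the trend. The median size of the change went from 0.31 to 0.21 in the higher genes and from 0.54 to 0.21 in the lower ones. In genes not called it went from 0.17 to 0.13. Lower genes with a change of at least 2-fold went from 67 to 26. Called genes were chosen for their values without the trend, which favours a kept direction and a smaller size. Where the fitted trends of the groups were within 0.1 log2 of each other, 200 of 7634 genes (2.62%) were called, 147 higher and 53 lower, and outside that range 1120 of 9058 (12.4%) were called. In 771 genes (4.61%) the 5 and 5 CPM values did not overlap (2.25% higher and 2.36% lower in the stress lineage), and in 305 (1.83%) after the trend was subtracted.

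The size of the count also rested on single libraries and on the F1 mice. Leaving out 1 F2 library gave 241 calls without stress replicate 11, 358 without no-stress replicate 17, 421 without no-stress replicate 16, 511 and 556 without stress replicates 12 and 13, and 2431 without stress replicate 15. When the fit held the 10 F2 libraries alone, 0 genes were called by edgeR (smallest adjusted p 0.0765), although 3216 had an unadjusted p below 0.05. With all 20 libraries, limma-voom called 1290 genes and DESeq2 2019.

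The 1 gene called with the trend entered has the identifier ENSMUSG00000111394 and the symbol AC160637.1, and was singled out after its value was seen. It is a transcript of unassigned class (Gm49759 in GENCODE M21, chr9:59672814-59676700, plus strand) that lies inside Pkm, the pyruvate kinase gene of glycolysis, on the same strand. Of its 3887 bases, 334 lie in exons of the protein-coding transcripts of Pkm, so reads of the 2 genes can overlap. Its level was 28.6, 29.4, 31.5, 30.6 and 36.3 CPM in stress replicates 11 to 15 and 56.4, 57.3, 43.7, 45.1 and 59.4 CPM in no-stress replicates 16 to 20. All 5 stress values were below all 5 no-stress values. The log2 fold change was −0.74 ± 0.11 (SE) without the trend (edgeR adjusted p = 0.0056) and −0.78 ± 0.11 with it (adjusted p = 0.0123). The call with the trend rested on single libraries. It was lost without stress replicate 11, 12 or 13 or no-stress replicate 16, 17 or 20, and with the 10 F2 libraries alone. The call of AC160637.1 was kept without stress replicate 14 or 15 or no-stress replicate 18 or 19. Its transcript has 48.0% GC, where the fitted trends of the groups differ by 0.04 log2. Pkm itself had 946 ± 94.8 CPM in the stress lineage and 1142 ± 155 in the no-stress lineage, with log2 fold changes of −0.27 (adjusted p = 0.0979) and, with the trend, 0.05 (adjusted p = 0.841).

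The next genes were chosen among those called without the trend for a trend difference within 0.1 log2, which keeps their 2 values near each other by construction. Nxph2, a secreted ligand of alpha-neurexins at synapses, had 4.42, 4.53, 4.66, 6.97 and 3.55 CPM in stress replicates 11 to 15 and 1.51, 1.33, 2.47, 2.38 and 1.59 CPM in no-stress replicates 16 to 20. Every stress value was above every no-stress value, with stress replicate 14, the library low in striatal and myelin markers, the highest. Its log2 fold change was 1.37 ± 0.26 (SE) without the trend (edgeR adjusted p = 0.00755) and 1.28 ± 0.26 with it (adjusted p = 0.0676). Leaving out any 1 F2 library gave 1.20 to 1.5, with a call each time. Of the 17 neurexophilin, neurexin and neuroligin genes listed, 17.6% were called, against 7.92% of all genes. Nxph2 was the 1 higher gene. The 2 lower genes were the presynaptic receptor Nrxn2 (−0.56) and Nlgn2 (−0.31), the neuroligin of inhibitory synapses. With the trend entered, the value of Nrxn2 was −0.08 and that of Nlgn2 turned to 0.13 (adjusted p = 0.832 and 0.408).

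Fzd4, a Wnt and norrin receptor of blood vessels and neurons, had 16, 21.3, 23.2, 18.8 and 19.9 CPM in the stress lineage and 14.3, 12.7, 15.7, 12.4 and 13.1 CPM in the no-stress lineage. The lowest stress value, 16, was just above the highest no-stress value, 15.7, and with the trend subtracted the groups overlapped. The log2 fold change was 0.54 ± 0.10 without the trend (edgeR adjusted p = 0.00848) and 0.49 ± 0.10 with it (adjusted p = 0.0676). It was the 1 gene called among 16 Wnt receptors and coreceptors (7.92% called over all genes), whose median log2 fold change was −0.01, against 0.00 over all genes tested.

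Genes of protein traffic and of the mitochondrion were also among those chosen for a small trend difference. Tmed7, a cargo receptor of vesicles between the endoplasmic reticulum and the Golgi apparatus, had 132, 134, 132, 111 and 126 CPM in the stress lineage and 94.4, 89.1, 107, 102 and 100 CPM in the no-stress lineage, with no overlap (log2 fold change 0.37 in the first fit and 0.36 in the second, edgeR adjusted p = 0.0111 and 0.0676). Cox17, the copper chaperone of cytochrome c oxidase, had 13.8, 15.4, 18.4, 19.1 and 20.8 CPM in the stress lineage and 26.6, 22.1, 23.6, 21.8 and 26.5 CPM in the no-stress lineage. The 2 groups did not overlap in Cox17 either, and its log2 fold change was −0.46 in the first fit and −0.54 in the second (adjusted p = 0.014 and 0.068). The Cox17 transcript used has 46.0% GC and its coding sequence 58.2%, so its small trend difference depends on the transcript chosen. Mrps9, a protein of the mitochondrial small ribosomal subunit, had a log2 fold change of −0.35 (18.5 ± 1.34 against 23.5 ± 2.27 CPM), and −0.40 with the trend. Timm44, which anchors the import motor of mitochondria, had −0.40 and −0.38, with overlapping groups. The larger list of nuclear respiratory chain and ATP synthase genes held 2 higher and 1 lower gene of 73 (4.11% called, against 7.92% of all genes). Its median was 0.06 in the first fit and 0.05 in the second.

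Other genes of this kind belong to separate functions. Epm2a, the glycogen phosphatase laforin, was higher (45.9 ± 2.85 against 36.2 ± 2.54 CPM, log2 fold change 0.34, and 0.30 with the trend). Fam117b (0.29 and 0.24), the Golgi phosphatase gene Impad1 (0.38 and 0.29), the transcription factor IIIC subunit gene Gtf3c6 (0.41 and 0.31) and the sphingosine phosphate phosphatase gene Sgpp1 (0.31 and 0.22) were higher as well. Hist1h2bg, a replication-dependent histone H2B gene, was lower at 1.35, 1.36, 1.36, 1.55 and 3.47 CPM in the stress lineage and 6.06, 3.93, 5.29, 3.60 and 2.74 CPM in the no-stress lineage. Only stress replicate 15 of that group overlapped the no-stress values. The log2 fold change of Hist1h2bg was −1.25 and −1.17, and since histone genes of this kind resemble each other and are little polyadenylated, its reads may be shared. Csad, an enzyme of taurine synthesis, had log2 fold changes of −0.47 and −0.39, and the methionine salvage gene Mri1 had −0.64 and −0.62. The remaining lower genes were Klhl33 (−1.05 in both fits), the pseudogene Pisd-ps2 (−0.55 and −0.62), Proser1 (−0.43 and −0.35) and Tmem214 (−0.40 and −0.34). In the fit with the trend, adjusted p for these 20 genes chosen for their small trend difference ran from 0.0676 (Tmed7) to 0.244 (Pdcd10).

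The largest changes were partly in genes that share sequence. Mid1, a ubiquitin ligase of microtubules that spans the pseudoautosomal boundary of the mouse X chromosome (chrX:169685199-170005736), had 15.8, 15, 17.1, 36.7 and 21.4 CPM in the stress lineage and 45.3, 76.1, 58.6, 59.8 and 86.7 CPM in the no-stress lineage. Its pseudogene Mid1-ps1 on the Y chromosome had 2.12 to 6.90 CPM and 12.3 to 17.2 CPM. In both, every stress value was below every no-stress value, and stress replicate 14 was the highest of its group. The log2 fold changes were −1.62 ± 0.39 for Mid1 and −2.0 ± 0.44 for Mid1-ps1 (SE; edgeR adjusted p = 0.0189 and 0.0136), and −1.45 and −1.79 with the trend (adjusted p = 0.117 and 0.104). The transcripts are identical at 1243 of 1287 aligned bases (96.6%), so the 2 genes are not independent measurements. Without the trend, leaving out 1 library ended the call of Mid1 in 4 of 10 fits (adjusted p up to 0.0672) and that of Mid1-ps1 in 1.

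Among the other large changes, Ncam2, a neural cell adhesion molecule, was higher at 66.1 ± 14.6 against 41.7 ± 8.0 CPM (log2 fold change 0.66, and 0.59 with the trend), and Brinp3 at 41.0 ± 13.1 against 25.3 ± 6.23 CPM (0.69 and 0.59). In both genes stress replicate 14 was highest and the groups overlapped. The part that tissue shares had in these values was not tested. Apold1, an immediate-response gene of endothelial cells, was 0.65 higher (0.60 with the trend). Atp1a4, known as the sodium pump subunit of sperm, was low in both groups at 0.706 ± 0.269 and 2.20 ± 0.936 CPM (−1.63 and −1.65). C1qtnf4, a secreted complement-related protein with the highest transcript GC content of the genes named here (70.7%), had −1.55 without the trend and −0.94 with it (adjusted p = 0.0308 and 0.186).

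Peroxisomal thiolase genes were lower. Acaa1a, which cleaves the last intermediate of peroxisomal fatty acid oxidation, had 29.8, 32.6, 31.4, 35.2 and 37.2 CPM in the stress lineage and 58.5, 58.8, 46.0, 49.1 and 59.2 CPM in the no-stress lineage. Its neighbour Acaa1b had 4.14, 4.23, 3.51, 5.14 and 4.91 CPM and 8.78, 10.2, 8.48, 7.42 and 7.72 CPM. Neither gene's groups overlapped in CPM. With the trend subtracted, the groups of Acaa1a overlapped and those of Acaa1b did not. The values were −0.71 and −0.96 without the trend (edgeR adjusted p = 0.0056 and 0.0103), and −0.35 and −0.62 with it (adjusted p = 0.119 and 0.0973). The 2 genes lie 182582 bases apart on chromosome 9 and are identical at 1380 of 1428 aligned bases (96.6%), so reads can be split between them, and both have a GC content near 59%, at 59.4 and 58.9%. Of 23 genes of this pathway, 3 were lower, this similar pair among them, and 1 was higher, the import receptor gene Pex7 (0.29 and 0.20). Called genes were 17.4% of the list, against 7.92% of all genes. The list's median was 0.05 in the first fit and 0.00 in the second.

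Of 28 heat shock proteins and chaperones, 8 were higher (28.6%, against 2.64% of all genes tested) and 0 were lower without the trend, and 20 were not called. The median log2 fold change of the list was 0.20 against 0.00 over all genes, and 5 members had a negative value. The 8 higher genes were subunits of the cytosolic chaperonin TRiC (Cct4 0.35, Cct8 0.28 and Tcp1 0.28), the mitochondrial chaperones Hspd1 (0.26) and Hspa9 (0.25), and the HSP70 partners Dnaja1 (0.33), Dnaja2 (0.30) and Hspa4 (0.26). Tcp1 had 183, 171, 153, 154 and 163 CPM in the stress lineage and 132, 136, 142, 138 and 132 CPM in the no-stress lineage. All 5 stress values of Tcp1 lay above the no-stress values in CPM, and the groups overlapped with the trend subtracted. The transcripts of the 8 genes had 41.2 to 47.4% GC, on the AT-rich side, where 3.24 to 7.91% of all genes in a bin were higher. With the trend entered the 8 values ran from 0.13 (Cct8) to 0.23 (Cct4), and the list median was 0.13 against 0.03 over all genes. In that fit 9 of the 28 genes had an unadjusted p below 0.05 (2373 of 16692 over all genes).

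Of 26 ubiquitin ligases and adaptors, 5 were higher and 1 was lower (23.1% called, against 7.92% of all genes), and 20 were not called. The list median was 0.16, and 0.10 with the trend, and 9 members had a negative value without it. The higher genes were Ndfip1, an adaptor that recruits NEDD4 ligases (0.43, and 0.28 with the trend), the cullin scaffolds Cul3 (0.30 and 0.20), Cul4b (0.32 and 0.18) and Cul1 (0.28 and 0.15), and Ube3a, the imprinted ligase of Angelman syndrome (0.32 and 0.30). Ube3a had 128, 143, 144, 138 and 103 CPM in the stress lineage and 97.4, 100, 99.3, 113 and 116 CPM in the no-stress lineage, and stress replicate 15 lay among the no-stress values. Trim41, the lower gene, has a GC content of 58.3% where the others have 36.9 to 44.6%, and its value went from −0.38 ± 0.06 (edgeR adjusted p = 0.0056) to −0.03 ± 0.06 (adjusted p = 0.852).

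Of 33 ionotropic glutamate receptors and postsynaptic scaffolds, 7 were lower (21.2%, against 5.28% of all genes), 0 were higher and 26 were not called. The 7 have a GC content of 55.0 to 62.3%, where 5.87 to 28.4% of all genes in a bin were lower. The scaffold gene Shank1 had 111, 124, 127, 184 and 116 CPM in the stress lineage and 171, 282, 217, 250 and 202 CPM in the no-stress lineage, with only stress replicate 14 reaching into the no-stress range. Its log2 fold change went from −0.76 ± 0.16 (edgeR adjusted p = 0.0124) to −0.27 ± 0.15 with the trend (adjusted p = 0.435). With 1 library left out in turn, Shank1 lost its call without the trend in 1 of 10 fits. Grin1, the obligatory NMDA receptor subunit, went from −0.42 to −0.02. Grin2c, Dlgap4, Grik5 and Shank2 went from −0.66, −0.51, −0.62 and −0.40 to −0.19, −0.10, −0.15 and −0.17. The list median was −0.09, and −0.02 with the trend. Genes of GABA synthesis, transport and receptors, of lower GC content (median 45.9%), held no called gene of 24 in either fit. Over all genes 7.92% were called without the trend. In the fit with the trend, 0 of the 24 had an unadjusted p below 0.05 (2373 of 16692 over all genes). The medians of the GABA list were 0.15 and 0.10.

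Of 44 DNA methylation and histone-modifying enzymes, 8 were lower (18.2%, against 5.28% of all genes), 0 were higher and 36 were not called. The 8 have a GC content of 56.8 to 61.0%, and in the bins of that range 14.3 and 28.4% of all genes were lower. Hdac5 had 60.9, 63.6, 60.9, 71.4 and 95.2 CPM in the stress lineage and 126, 115, 115, 109 and 99.7 CPM in the no-stress lineage. The groups of Hdac5 did not overlap in CPM. Stress replicate 15, the library whose GC contrast goes against its group, was the nearest to the no-stress mice. With the trend subtracted, that replicate lay within the no-stress range. The log2 fold change of Hdac5 went from −0.68 ± 0.12 (edgeR adjusted p = 0.00662) to −0.25 ± 0.06 (adjusted p = 0.106). The histone H3 lysine 4 methyltransferases Kmt2b, Kmt2d, Setd1a and Setd1b had −0.47, −0.67, −0.40 and −0.41, and −0.06, −0.17, −0.09 and 0.00 with the trend. The H3 lysine 27 demethylase Kdm6b had −0.59 and −0.17, the H3 lysine 9 methyltransferase Ehmt2 −0.52 and −0.10, and Hdac10 −0.61 and −0.34. The list median was −0.15, and −0.03 with the trend. Of 364 genes with a Zfp symbol, most of which encode C2H2 zinc finger proteins, 8.52% were called, near the 7.92% over all genes. The 13 higher genes had a GC content of 40.1 to 44.7% and the 18 lower genes one of 54.3 to 63.8%.

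**Figure D4:**
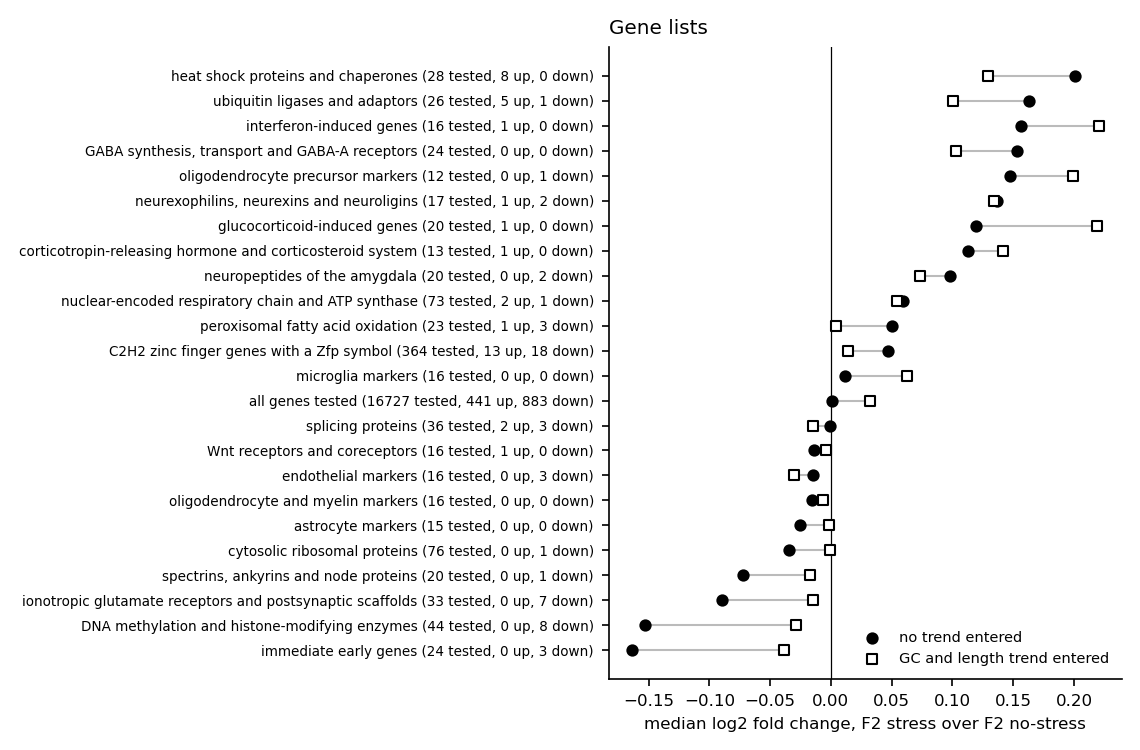
Median log2 fold change of F2 stress over F2 no-stress for gene lists (horizontal axis), with the number of genes tested and called higher (up) or lower (down) without the trend beside each name. Filled circles are the fit without the trend and open squares the fit with it; the medians of postsynaptic, chromatin and immediate early genes lie closer to 0 with the trend, and that of glucocorticoid-induced genes lies further from it.

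Immediate early genes, which neurons transcribe within minutes of activity, held 3 lower genes of 24 (12.5%, against 5.28% of all genes). The list's median GC content was 55.3%. The 3 lower genes have 57.4 to 62.6% GC, and in the bins of that range 14.3 and 28.4% of all genes were lower. Junb, an AP-1 transcription factor, had 6.84, 6.27, 5.02, 6.12 and 8.61 CPM in the stress lineage and 18.1, 15, 22.1, 14.6 and 8.08 CPM in the no-stress lineage, and only no-stress replicate 20 overlapped the stress mice. Its log2 fold change was −1.24 ± 0.23 (edgeR adjusted p = 0.00739), and −0.77 ± 0.17 with the trend (adjusted p = 0.0824). Npas4, a transcription factor induced by calcium entry, went from −1.0 to −0.69 and Ier2 from −1.0 to −0.57. Fos, the most used marker of the class, spread widely, from 7.10 to 30.4 CPM in the stress lineage and from 10.1 to 32.8 CPM in the no-stress lineage, with a log2 fold change of −0.04 ± 0.32 (adjusted p = 0.96). The summed CPM of the 24 genes ran from 474 to 1066 in the stress lineage and from 712 to 983 in the no-stress lineage. In the neuropeptide list 2 of 20 genes were lower (10%, against 5.28% of all genes). They were the inhibin subunit gene Inha (−0.99, and −0.63 with the trend) and the neurotrophin-induced gene Vgf (−0.72 and −0.20). Both lie in the highest bin of GC content, at 59.7 and 64.1%, where 28.4% of all genes were lower.

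In the list of the corticosteroid system 1 gene of 13 was called (7.69%), a share near the 7.92% over all genes. Nr3c1, the glucocorticoid receptor, had 106, 125, 90.9, 109 and 106 CPM in the stress lineage and 94.5, 83.0, 87.4, 89.4 and 79.3 CPM in the no-stress lineage, and stress replicate 13 lay within the no-stress range. Its log2 fold change was 0.31 ± 0.09 (edgeR adjusted p = 0.0478), just inside the threshold, and 0.22 ± 0.10 with the trend (adjusted p = 0.31). With 1 library left out in turn, Nr3c1 lost its call without the trend in 8 of 10 fits (adjusted p up to 0.134). The mineralocorticoid receptor gene Nr3c2 had 56.8 ± 3.83 and 55.2 ± 1.05 CPM (0.04, adjusted p = 0.831). Fkbp5, a receptor co-chaperone that glucocorticoids induce, had 42.8 ± 6.28 and 46.4 ± 6.5 CPM (−0.12, adjusted p = 0.567). Crh, the corticotropin-releasing hormone, had 5.74 ± 1.86 and 5.29 ± 0.938 CPM, and its receptor Crhr1 had 11.5 ± 2.53 and 13 ± 1.82 CPM, with a sign that turned with the trend (−0.19 and 0.14). The oxytocin receptor gene Oxtr had 34.1 CPM in stress replicate 14 and 11.6 to 17.6 CPM in the other stress mice, against 8.78 to 19.4 CPM (0.48 ± 0.25, adjusted p = 0.23), and 0.14 without that replicate.

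Of 20 glucocorticoid-induced genes, 1 was called (5%, against 7.92% of all genes). This was Errfi1, an inhibitor of the epidermal growth factor receptor, which was higher (26.3 ± 2.06 against 20.2 ± 1.44 CPM, log2 fold change 0.38, and 0.32 with the trend). The list's median went up with the trend, from 0.12 to 0.22, against 0.03 over all genes, with 16 of 20 values positive where all genes had 9511 of 16692. Tsc22d3, which encodes the anti-inflammatory protein GILZ, was picked out of this list after its values were seen. It had 58.5, 45.3, 69.2, 73.8 and 61.4 CPM in the stress lineage and 51.3, 38.0, 50.8, 45.3 and 49.7 CPM in the no-stress lineage, and with the trend subtracted all 5 stress values were above the no-stress values. Its log2 fold change was 0.39 ± 0.14 (edgeR adjusted p = 0.0765), and 0.64 ± 0.13 with the trend (adjusted p = 0.0676), and its transcript has 57.0% GC. The kinase gene Sgk1 had 0.51 and 0.46, the mTOR inhibitor gene Ddit4 0.11 and 0.42, and Per1 −0.36 and 0.04. None of these 4 genes passed the threshold in either fit.

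**Figure D5:**
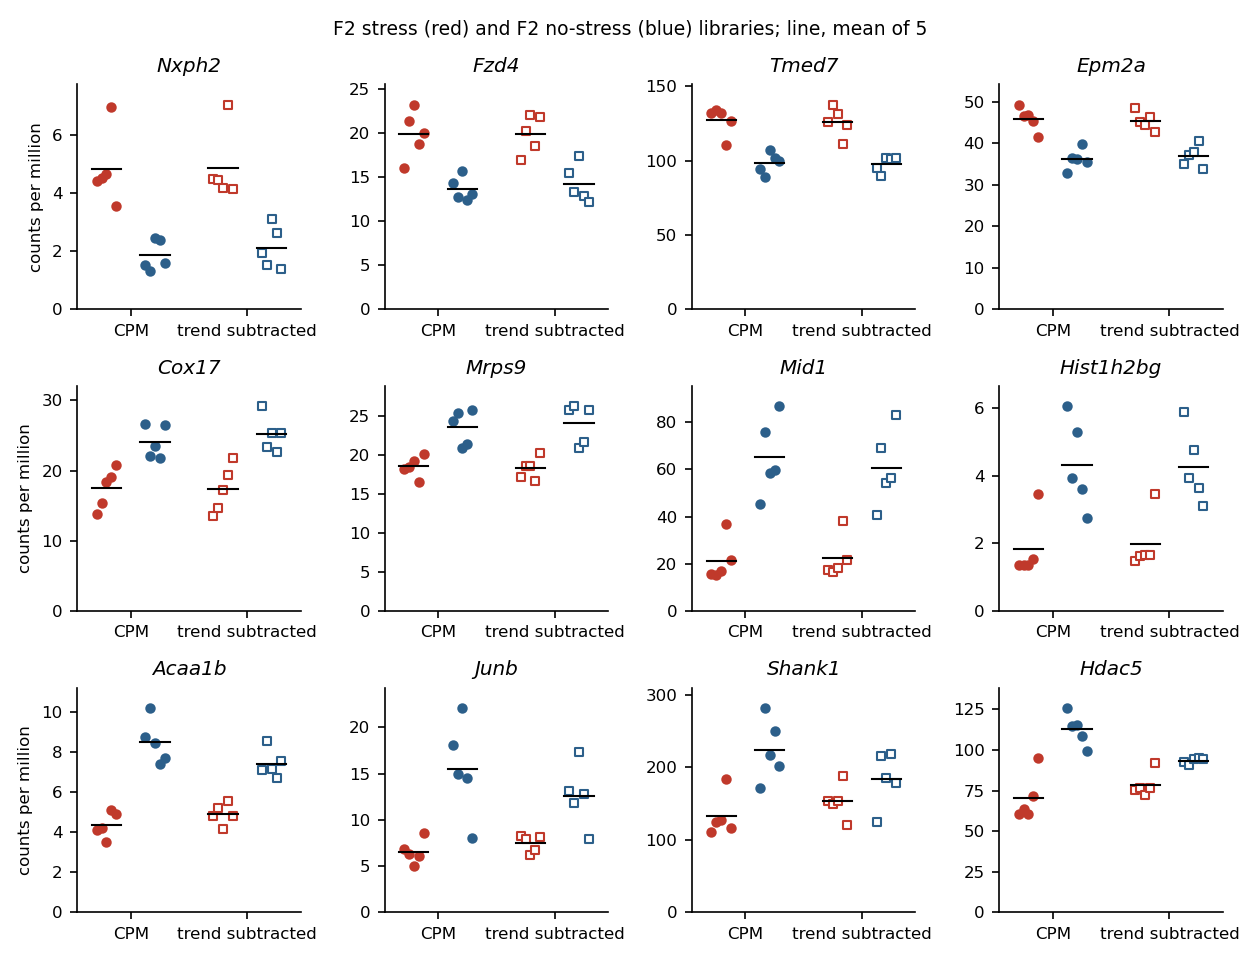
CPM of 12 genes in the 10 F2 libraries (stress lineage red, no-stress lineage blue; line, mean of 5), as measured (filled circles) and after subtraction of the GC and length trend fitted in that library (open squares). Nxph2, Tmed7 and Cox17 look alike in both, whereas the groups of Hdac5 and Shank1 come closer after subtraction.

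A few calls went against the gradient of transcript GC content. In the 3 bins of highest GC content (from 53.8%), 810 genes were lower and 4 were higher, and in the 3 bins of lowest GC content (up to 46.4%), 345 were higher and 7 were lower. The 4 higher genes, named after their values were seen, were Hnrnpa0, an RNA-binding protein of AU-rich mRNAs (0.25, and 0.46 with the trend), Pdcd5 (0.26 and 0.37), the phosphatase 2A catalytic subunit gene Ppp2cb (0.23 and 0.34) and Smim10l1 (0.30 and 0.70). Hnrnpa0 had 90.3, 95.6, 83.4, 80.0 and 82.8 CPM in the stress lineage and 72.1, 68.1, 78.0, 74.4 and 70.4 CPM in the no-stress lineage. The differences of these 4 genes were larger with the trend entered, with edgeR adjusted p from 0.0532 to 0.0938. That gain was set by how they were picked, as higher genes where the fitted trend of the groups is negative. The fitted trend difference was −0.20 in Hnrnpa0, −0.11 in Pdcd5, −0.11 in Ppp2cb and −0.40 in Smim10l1. The 7 lower genes were Cox17, the splicing factor subunit gene Sf3b5 (−0.66 and −0.75), Adgrf4 (−1.15 and −1.22) and the non-coding or unassigned transcripts Gm28578, AL590503.1, Gm26901 and Gm44667. Of these, Gm28578, Gm26901 and Gm44667 were low, at 1.12, 0.536 and 0.798 CPM in the stress lineage. The coding sequences of Cox17 and Sf3b5 have 58.2 and 61.6% GC, and that of Adgrf4 has 45.7%. For Cox17 and Sf3b5 the place among AT-rich genes thus depends on the whole transcript used, of 3690 and 3841 bases.

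Markers of other cell types gave few calls. Astrocyte, oligodendrocyte, microglia, mural and choroid plexus lists held no called gene of 15, 16, 16, 15 and 5 by edgeR in either fit. Over all genes 7.92% were called without the trend, and at that share lists this short would hold few calls. With the trend 3 astrocyte genes and none of the others had an unadjusted p below 0.05 (2373 of 16692 over all genes). Of 16 endothelial markers 3 were lower (18.8%, against 5.28% of all genes), the vessel tube formation gene Egfl7 (−0.57, and −0.26 with the trend), the receptor gene Tie1 (−0.58 and −0.24) and the tight junction gene Cldn5 (−0.49 and −0.10), at 58.2 to 60.5% GC, in the upper 2 bins, where 14.3 and 28.4% of all genes were lower. Without the trend, Tie1 lost its call in 5 and Cldn5 in 8 of the 10 fits with 1 library left out. The summed CPM of the endothelial list was 339 to 589 in the stress lineage and 423 to 522 in the no-stress lineage, so the groups overlapped. Bcan was the 1 lower gene of 12 markers of oligodendrocyte precursors (−0.52 and −0.11), or 8.33%, against 5.28% of all genes. Of 16 interferon-induced genes, only Ifit2 was called (6.25%, against 7.92% of all genes). It was higher (8.29 ± 1.62 against 5.88 ± 0.488 CPM, 0.49 and 0.36). Of 76 cytosolic ribosomal protein genes, only Rpl36 was called (1.32%, against 7.92% of all genes), and it was lower (−0.93 and −0.54). No mitochondrially encoded gene of 15 was called, with 0 at an unadjusted p below 0.05 with the trend (2373 of 16692 over all genes).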

How the data were processed

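Counts were deposited as whole numbers for each gene (Ensembl identifier) in each mouse, in 1 table of 29671 genes and 20 libraries. The submitters' processing notes name STAR 2.5.3a and GRCm38; the counting tool, annotation and strand setting are not recorded in those notes. The authors' columns sum to 13654890 to 13714805 counts through a step that is not described, so the depth of sequencing, and the precision it gives, is unknown. Genes kept by filterByExpr (16727) were scaled by TMM (factors 0.956 to 1.042) and tested in edgeR 4.0.16 (R 4.3.3) by the quasi-likelihood test, using robust dispersions and 1 mean for each of the 4 groups. The biological coefficient of variation was 18.1%. Genes below an adjusted p of 0.05 (Benjamini-Hochberg over all genes tested) are the ones described as called.

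GC content and length came from the transcript with the longest coding sequence in GENCODE M21 (29600 of 29671 identifiers matched). Each library's log2 deviation from the gene mean (prior count 2) was fitted with splines of 5 degrees of freedom on both, and the fit was entered as an offset. The test was checked on simulated data for this comparison (16559 genes) with the real trends added. It called 138 unchanged genes when no offset was used and 4 with the offset. Of 100 genes changed 2-fold it called 88 and 92, and of 100 changed 1.5-fold 56 and 50. The added trends were the same splines that the offset fits, so their removal was set by the design. The simulation cannot show what the offset does to real differences that follow GC content. The simulated spread came from the real counts without the offset, so it already held the variation of the trends within groups. The real data gave 1324 calls without the offset. For that reason the 138 simulated calls do not estimate how many of the 1324 follow from the trends. The alternatives were DESeq2 1.42.0, limma-voom 3.58.1, 1 surrogate variable (sva 3.50.0), other scalings, filters, thresholds, trends and groups in the fit, and each F2 library left out.

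The genes named were up to 30 called with the offset, the called genes without it with a trend difference within 0.1 log2 (10 higher and 10 lower with the smallest p), the 5 highest and 5 lowest fold changes, up to 3 called genes from each of 32 gene lists, and 15 fixed genes, with a mean of at least 1 CPM and a gene symbol. Further genes are marked as picked after their values were seen, or are members of a list described by its calls; some called list members are not reported here. The comparison, the lists and the rule were chosen with earlier results of these data known, so no list is independent support. Tests on libraries are two-sided exact permutation tests. Figures were drawn with Python 3.11.15 and matplotlib 3.10.9, and pairs of sequences were aligned with Biopython 1.88.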

Additional observations from a re-analysis of the deposited data

Results flagged for a closer look

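In 172 groups of 5 libraries examined, 9 held 1 library far from the rest of its group, and chance alone gives about 1 in 20. Stress replicate 14 stood apart in Tmem214 (50.7 CPM), Oxtr (34.1 CPM) and Shank1 (184 CPM), and stress replicate 15 in Hist1h2bg (3.47 CPM), Zfp523 (66.2 CPM) and Bcan (213 CPM). Single values also stood apart in Uqcrc2 in stress replicate 11 (209 CPM), Egfl7 in no-stress replicate 17 (24.4 CPM) and Dnaja2 in no-stress replicate 20 (134 CPM).

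The lineage effect (stress against no-stress lineage, log2) differed between F2 and F1 in 28 of the 77 named genes, by an interaction term in edgeR at adjusted p below 0.05. Of the 77, 70 were called in F2 without the trend, most of them chosen for that call, which favours a difference from F1. The 28 are thus no independent support, and the share over all genes tested is not given here. With the GC and length trend entered, 0 of the 77 passed, and the smallest adjusted p was 0.113. The F2 effect was the more positive in Tmed7 by 0.48, Fzd4 by 0.54, Epm2a by 0.49, Ndfip1 by 0.49, Gtf3c6 by 0.65, Cct4 by 0.41, Sgpp1 by 0.35, Snrpd3 by 0.53, Naa50 by 0.40, Pdcd10 by 0.51 and Dnaja2 by 0.42. It was the more negative in transcription factors and chromatin genes, with differences of −1.34 in Junb, −0.71 in Hdac5, −0.74 in Kdm6b and −0.83 in Zfp335. At the synapse and in secretion the difference was −1.03 in Shank1, −0.55 in Dlgap4, −0.85 in Vgf and −1.22 in Inha. In the peroxisomal thiolases it was −0.77 in Acaa1a and −1.20 in Acaa1b. The remaining differences were −0.997 in Sptbn4, −0.79 in Prpf40b, −0.74 in Pisd-ps2, −0.56 in Proser1, −0.55 in Tmem214, −0.43 in Trim41 and −2.49 in Prox2os.

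The lineage difference in GC contrast was lower in F2 than in F1 by −0.548 log2, and that in the GC content of an average count by −0.733 percentage points. Permutation of the lineage labels within each generation gave p = 0.0381 and 0.0143. Both measures describe GC content and were flagged for a p below 0.05 among the 9 library measures. Neither p is adjusted for the 9.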

How the results depend on the processing

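Without the trend, 1324 genes were called, and 1214 to 1382 were called with limma-voom, relative log expression or upper-quartile factors, library totals alone, a minimum of 1 CPM, or a fold change of at least 1.2. The count was 2019 with DESeq2, 2173 with 1 surrogate variable, 2502 at adjusted p below 0.1, 1962 with the length trend alone, 737 with no low-count filter, 14 with the GC trend alone, and 0 with the 10 F2 libraries alone (edgeR, 3216 at unadjusted p below 0.05). An alternative chosen after seeing the data, the GC contrast of each library as a term, called 0 (edgeR, 2454 at unadjusted p below 0.05). With 1 library left out in turn the count went from 241 (without stress replicate 11) to 2431 (without stress replicate 15), and was 358 to 556 without stress replicate 12 or 13 or no-stress replicate 16 or 17. With the trend, 1 gene was called, 22 with medians of 20 GC bins, 105 at adjusted p below 0.1, 8 with the longest transcript (chosen after seeing the data), 0 with the 10 F2 libraries alone (edgeR, 1462 at unadjusted p below 0.05) and 0 to 122 with 1 library left out, with 122 without stress replicate 14, 90 without no-stress replicate 18 and 74 without stress replicate 15. The lineage difference in GC contrast was −0.55 (exact permutation p = 0.0159), −0.40 without mitochondrial, ribosomal protein and called genes (exact p = 0.0635), and −0.66 to −0.48 with 1 library left out. The length contrast difference of −0.01 became 0.0065 with 5 bins and ran from −0.073 to 0.062 with 1 library left out. Of the 70 named genes called without the trend, 28 kept their call in all 10 of those fits, 42 lost it at least once and 0 reversed. Log2 fold changes reversed with the GC trend alone in Nlgn2 (0.11) and Crhr1 (0.14), with the length trend alone in Fos (0.029), and with the GC contrast as a term in Rpl36 (0.10), C1qtnf4 (0.13), Ndufb7 (0.057), Fkbp5 (0.088), Bdnf (−0.20) and Crh (−0.041). With the trend, Fos reversed to 0.016 with 3 df and 0.013 with the longest transcript. With 1 library left out, Crh ran from −0.015 to 0.30 and Fos from −0.30 to 0.27 without the trend. With it, the ranges were −0.17 to 0.041 in Cldn5, −0.14 to 0.0053 in Nrxn2, −0.051 to 0.0029 in U2af2, −0.10 to 0.52 in Bdnf, −0.027 to 0.26 in Crh and −0.29 to 0.29 in Fos. Apart from fits with fewer libraries or genes, the cause was not tested. No paired analysis was possible because each mouse has a number of its own. The true depth, unknown here, limits what low genes can show.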

Other observations

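At an adjusted p below 0.1 with the GC and length trend entered (edgeR), 105 genes differed between the F2 lineages, 65 higher and 40 lower in the stress lineage. Of these 105, 61 were called without the trend and 44 were not. The median transcript GC content was 55.6% in the higher and 54.6% in the lower genes, both above the 50.1% of all genes tested. The genes below were picked after their values were seen. Emd, which encodes emerin of the inner nuclear membrane, had 73.4, 69.9, 63.9, 62.9 and 70.2 CPM in stress replicates 11 to 15 and 57.0, 53.8, 62.1, 55.3 and 50.9 CPM in no-stress replicates 16 to 20. All 5 stress values were above all 5 no-stress values, and the log2 fold change of Emd was 0.29 without the trend (adjusted p = 0.0231) and 0.36 with it (adjusted p = 0.0532). Thap11, a zinc finger transcription factor, went from 0.14 to 0.46, the transcriptional repressor gene Eid2 from 0.31 to 0.66 and Ggnbp1 from 0.18 to 0.56, each with an adjusted p of 0.0532 with the trend. Ube2m, the conjugating enzyme of NEDD8, had 94.8, 86.8, 74.3, 78.0 and 99.8 CPM in the stress lineage and 88.7, 85.4, 95.7, 89.7 and 74.7 CPM in the no-stress lineage. The measured values of Ube2m thus overlapped, and its difference of 0.46 (adjusted p = 0.0676) was present only in the fit with the trend, since the measured one was −0.0019.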
